A study of Mus musculus with 2 samples.

Results

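Broad distal peaks are wide stretches of accessible chromatin that lie away from the ends of annotated genes. They were picked from the deposited peak list of a single-nucleus ATAC-seq study by a rule on width and position. A member was 2000 bp wide or more and met no window of 1 kb to either side of either end of a RefSeq gene span. This gave 2466 broad distal peaks among 87174 peaks in all, or 2.83% of the list. Because they were chosen by width and by distance from gene ends, neither of these is a result, and the narrow distal peaks set beside them below met the same rule on position.

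The mice were wild-type, of C57BL/6J and CD1 background, and the striatum was taken at E14.5, while the title of the study concerns Dlx1, Dlx2 and the transcription factor Meis2 in neuronal fate. The 2 libraries form 1 group with no mutant and no treatment, and the labels do not say whether they came from separate embryos. In this assay a transposase cuts open DNA inside isolated nuclei, and each nucleus is barcoded in a droplet. The deposited list is shared by the libraries and holds positions only, on genome build mm10, so the tissue label could not be checked against the expression of markers. Read depth and the spread between libraries are therefore unknown, no test across samples could be made, and the intervals below are exact 95% binomial intervals that cover the counting of peaks or genes only.

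In developing brain, promoters of active genes are open, and so are distal enhancers, where transcription factors bind and act on genes at a distance. Genes that fix cell identity are known for clusters of enhancers spread over long stretches inside or beside the gene. A wide peak far from a gene end can also be an alternative promoter, a start of transcription inside a gene. Any 2 neighbouring peaks of the list lay at least 501 bp apart, but whether close open regions were joined into wide peaks is not known, and a wide peak need not be open throughout.

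Some of these peaks covered annotated starts of transcription that lie deep inside genes. The sequences below are the 250 bases before the start in each of the 6 widest such peaks at protein-coding genes, shown because they separate starts rich in the dinucleotide CG from starts poor in it. They are from RefSeq (GRCm38.p6, the assembly that mm10 names), run 5′ to 3′ along the gene's strand and have each CG in capitals.
Rara, chr11:98964622-98964871, + strand: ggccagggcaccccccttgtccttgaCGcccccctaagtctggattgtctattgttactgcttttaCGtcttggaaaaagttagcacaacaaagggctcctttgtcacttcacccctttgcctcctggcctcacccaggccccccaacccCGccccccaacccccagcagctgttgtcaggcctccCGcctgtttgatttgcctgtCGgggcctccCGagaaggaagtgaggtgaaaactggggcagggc
Ebf3, chr7:137314446-137314695, - strand: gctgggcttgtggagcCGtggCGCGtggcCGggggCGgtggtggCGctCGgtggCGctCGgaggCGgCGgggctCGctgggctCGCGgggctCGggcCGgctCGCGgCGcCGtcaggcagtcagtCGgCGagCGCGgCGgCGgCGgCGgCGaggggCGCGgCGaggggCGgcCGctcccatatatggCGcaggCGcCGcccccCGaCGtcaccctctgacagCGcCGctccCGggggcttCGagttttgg
Cic, chr7:25281929-25282178, + strand: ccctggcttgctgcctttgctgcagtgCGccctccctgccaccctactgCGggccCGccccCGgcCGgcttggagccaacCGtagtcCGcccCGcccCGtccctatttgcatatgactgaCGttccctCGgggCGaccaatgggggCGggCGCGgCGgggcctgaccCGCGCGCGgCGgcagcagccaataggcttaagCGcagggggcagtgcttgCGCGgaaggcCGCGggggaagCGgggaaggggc
Ptch1, chr13:63565736-63565985, - strand: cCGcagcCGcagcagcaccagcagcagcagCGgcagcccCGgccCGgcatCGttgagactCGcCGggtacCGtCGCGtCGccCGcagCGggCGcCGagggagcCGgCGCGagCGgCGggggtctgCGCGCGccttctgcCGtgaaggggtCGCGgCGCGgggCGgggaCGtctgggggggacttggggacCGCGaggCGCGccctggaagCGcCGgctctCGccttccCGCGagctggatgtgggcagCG
Srebf1, chr11:60210472-60210721, - strand: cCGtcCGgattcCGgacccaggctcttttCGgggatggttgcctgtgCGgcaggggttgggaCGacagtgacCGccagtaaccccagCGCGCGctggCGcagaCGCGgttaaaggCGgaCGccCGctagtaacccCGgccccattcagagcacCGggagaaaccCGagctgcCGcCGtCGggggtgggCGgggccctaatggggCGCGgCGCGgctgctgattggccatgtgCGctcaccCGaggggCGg
Dnmt3a, chr12:3806730-3806979, + strand: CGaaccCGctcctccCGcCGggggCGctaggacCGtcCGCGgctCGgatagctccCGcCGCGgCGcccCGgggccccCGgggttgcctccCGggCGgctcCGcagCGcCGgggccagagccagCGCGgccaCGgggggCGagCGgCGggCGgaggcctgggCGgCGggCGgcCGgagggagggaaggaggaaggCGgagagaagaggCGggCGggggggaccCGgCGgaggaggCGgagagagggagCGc

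At Rara, which encodes a nuclear receptor for retinoic acid, the start lay 37072 bp into the gene under a peak of 13421 bp, and its 250 bases held 6 CG. The other 5 sequences were far richer in CG. Ebf3, which encodes a factor of neuronal differentiation, had 43 CG before a start 8360 bp into the gene, under a peak of 7590 bp. Ptch1, which encodes the Hedgehog receptor, had 41 CG before a start 7725 bp into the gene, under a peak of 7068 bp. At Dnmt3a, which encodes a DNA methyltransferase, 38 CG preceded a start 5421 bp into the gene, under a peak of 6878 bp. Srebf1, which encodes a regulator of lipid synthesis, had 30 CG under a peak of 6913 bp, and the repressor gene Cic had 27 CG under a peak of 7219 bp.

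Annotated starts were counted for all broad distal peaks outside chromosome 18, for which no start was used here. Of 2373 such peaks, 406 held at least 1 annotated start that lay more than 1 kb from every gene end (17.1%, interval 15.6 to 18.7), against 844 of 61957 narrow distal peaks, those under 2000 bp (1.36%, interval 1.27 to 1.46). Wide peaks cover more bases, and per Mb of peak the density was 76.3 starts in broad and 27.1 in narrow distal peaks. In the other direction, 518 of 4727 such starts, or 11.0%, lay in a broad distal peak, 970 lay in a narrow distal peak and 3239 in neither. The 518 starts belonged to 385 genes, 374 of them protein-coding. Peaks with a start were little wider than those without, with medians of 2593 and 2478 bp. Starts were at hand for 17491 of 21770 protein-coding genes, so starts of the other genes were not counted.

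The starts under broad distal peaks were rich in CG and in GC boxes. In the 300 bases round a start, 250 before and 50 after, the median number of CG was 20.5 (quartiles 10 and 31) under broad distal peaks, 12 (6.0 and 19) under narrow distal peaks and 4.0 (2.0 and 7.0) under no distal peak. All 32849 annotated starts, gene ends included, had a median of 7.0. The letters GGGCGG, a GC box known to bind Sp and Klf factors, were found on either strand in 63.9% of starts under broad distal peaks, 45.6% under narrow distal peaks, 19.2% under neither and 35.7% of all annotated starts. Each GGGCGG itself contains a CG. For TAATTA, a core bound by homeodomain factors such as the Dlx proteins, the shares were 4.44%, 4.74%, 6.55% and 5.29% in the same order, and for TGACAG, bound by Meis factors, they were 15.4%, 18.6%, 20.3% and 19.2%. Starts of 1 gene that lie close together share sequence, and a match is a run of letters, not a site shown to be bound.

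Many broad distal peaks were only just broad. The median was 2499 bp, with quartiles of 2204.25 and 3130.5 bp, and 1235 of 2466 were under 2500 bp. Some 689 reached 3000 bp, 109 reached 5000 bp and 5 reached 10 kb. On the inside of the width limit, 2 peaks measured exactly 2000 bp and the next 3 measured 2001 bp. On the outside, 5 distal peaks measured 1999 bp, and 57 members at most 20 bp over the limit stood beside 68 distal peaks at most 20 bp under it. No gap in width separates the classes. Broad distal peaks made up 3.69% of the 66759 distal peaks but 16.0% of the length those cover, 7.05 Mb beside 37.1 Mb in narrow distal peaks. The 5620 broad gene-end peaks were wider, with a median of 2673 bp and a maximum of 64767 bp.

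**Figure D1:**
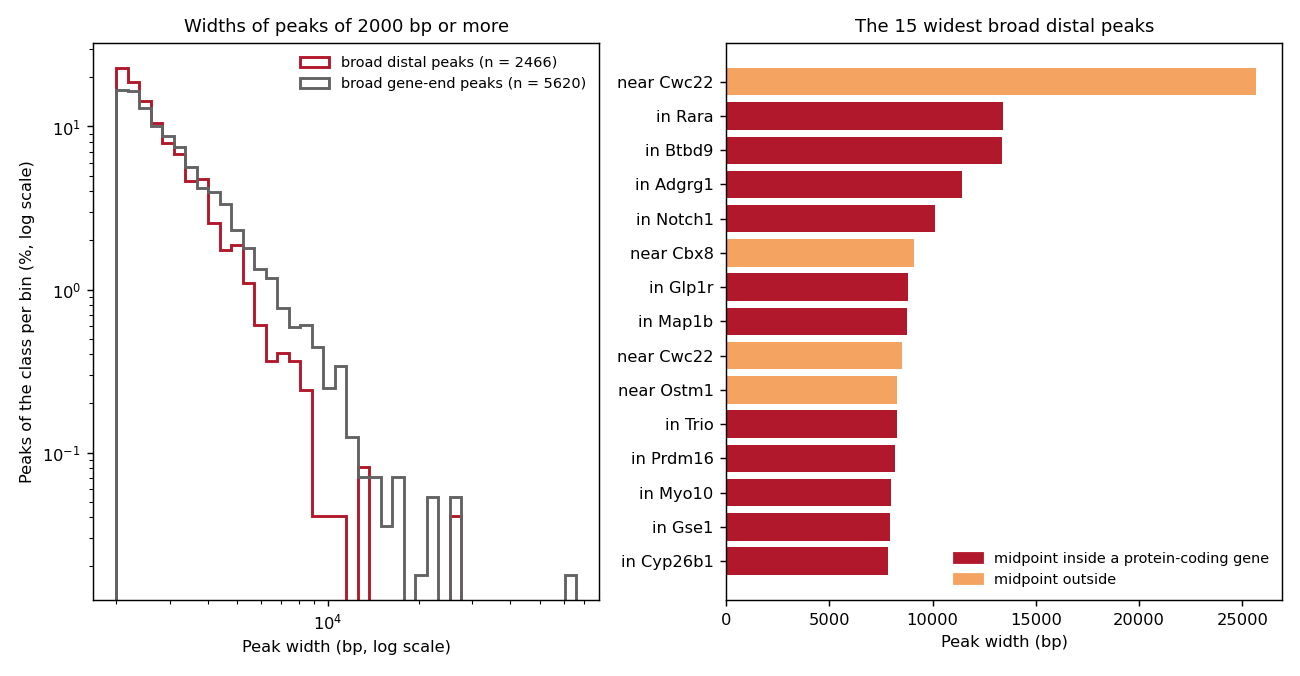
Left, share of peaks (%, log scale) by width (bp, log scale) for the 2466 broad distal peaks and the 5620 broad gene-end peaks; right, width in bp of the 15 widest broad distal peaks, with the gene that holds the midpoint or, for peaks outside protein-coding genes, the gene with the nearest end. The widest, near Cwc22, measured 25662 bp, against 13421 bp for the next, in Rara.

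The widest members lay at genes of very different kinds. After the peak of 25662 bp near Cwc22, a splicing factor gene, and that in Rara came a peak of 13352 bp in Btbd9, a gene associated in humans with restless legs (chr17:30452492-30465844). Next were 11439 bp in Adgrg1, an adhesion receptor gene known from cortical development (chr8:94990834-95002273), and 10102 bp in Notch1 (chr2:26484997-26495099). Notch1 encodes the receptor that keeps neural progenitors undifferentiated. It held a second member of 2876 bp, 709 bp away from the first. Next in width, peaks were found near the Polycomb gene Cbx8 (9092 bp) and in Glp1r, the receptor gene for a gut hormone (8796 bp). Map1b, a gene of the neuronal cytoskeleton, held one of 8755 bp, and Trio, which encodes an exchange factor of axon growth, one of 8292 bp. A peak near Ostm1, a gene of bone resorption, measured 8293 bp. Others lay in Prdm16 (8179 bp), in Myo10, a myosin gene of filopodia (8005 bp), and in Gse1 (7920 bp). The list of 15 closed with Cyp26b1, which encodes an enzyme that breaks down retinoic acid (7831 bp, chr6:84583098-84590929).

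Among these, 2 stretches held several wide members. Beyond Cwc22 on chromosome 2 lay 3 members of 25662, 8521 and 7462 bp (chr2:77970103-77995765, chr2:78004061-78012582 and chr2:78019813-78027275), none inside a protein-coding gene. The widest peak of the entire list, 64767 bp, lay beside them at an end of Cwc22 itself. In the 215 kb from Cwc22 onwards (chr2:77881159-78096356), 9 peaks of any width were present, and they covered 53.5% of the stretch, against 2.92% for all chromosomes. On chromosome 17, the 720 kb from Btbd9 to Glp1r held 16 members among 149 peaks, or 22.2 members per Mb against 0.927 over all chromosomes. The members there lay in Btbd9, in Glo1, which encodes a detoxifying glyoxalase, in the axonemal dynein gene Dnah8, in Glp1r and between Dnah8 and Glp1r, and ranged from 2074 bp in Dnah8 to 13352 bp. As background, the DNA segments with Cwc22 and with Glo1 are known to differ in copy number between mouse strains. Copy number was not measured here.

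Broad distal peaks lay inside protein-coding genes more often than narrow distal peaks did. By midpoint, 1720 of 2466 were inside a protein-coding gene (69.7%, interval 67.9 to 71.6), against 34586 of 64293 narrow distal peaks (53.8%, interval 53.4 to 54.2). Another 6.45% lay only inside other genes, in 156 of 159 cases a long non-coding RNA gene, against 7.68% of narrow distal peaks. Between genes lay 23.8% of broad and 38.5% of narrow distal peaks. The nearest end of a protein-coding gene was a median of 26047 bp away for broad distal peaks (quartiles 8996.25 and 70193 bp) and 34837 bp for narrow ones (quartiles 11103 and 99843 bp). With peaks counted as gene-end by their midpoint alone, the median for broad distal peaks was 11516 bp, since wide peaks that reach into a gene-end window with one side only then count as distal.

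**Figure D2:**
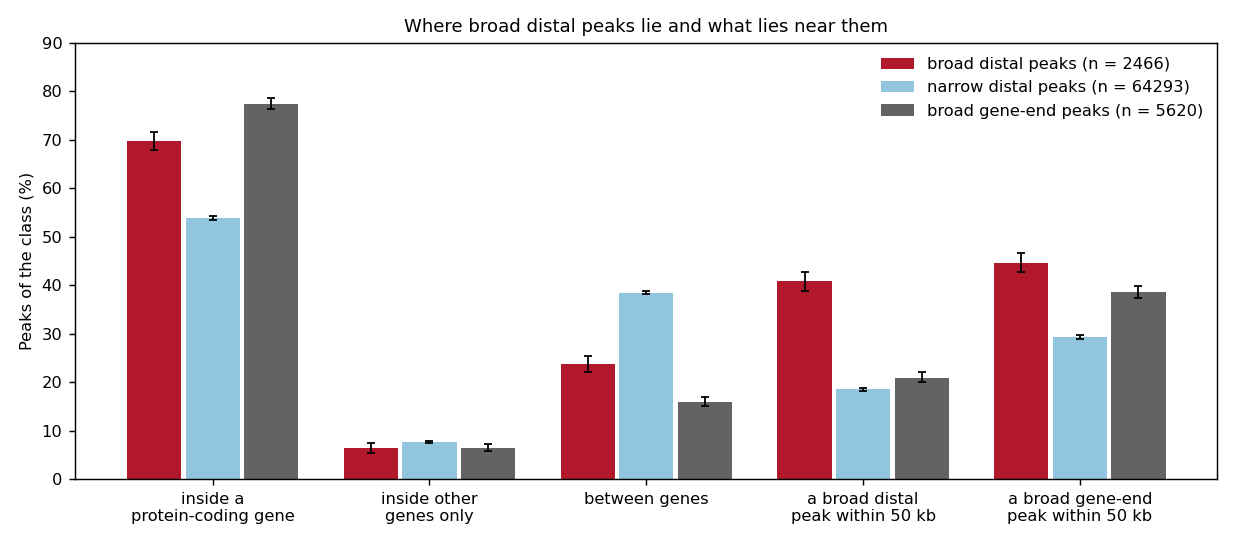
Share of peaks (%) by place of the midpoint and by neighbouring peaks, for broad distal, narrow distal and broad gene-end peaks; bars carry exact 95% binomial intervals. Broad distal peaks were inside a protein-coding gene in 69.7% and had another broad distal peak within 50 kb in 40.8% of cases, against 53.8% and 18.6% of narrow distal peaks.

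These differences grew with width inside the class as well. Among distal peaks of 1000 bp to under 2000 bp, 57.2% were inside a protein-coding gene. The share was 67.1% for members under 3000 bp, 75.3% for those of 3000 bp to under 5000 bp and 83.5% (interval 75.2 to 89.9) in the 109 peaks of 5000 bp or more. A broad gene-end peak lay within 50 kb of 42.0%, 48.6% and 67.9% of members in these 3 classes of width, against 27.9% of distal peaks under 500 bp. Annotated starts reached 20.3% and 20.6% in the upper 2 classes, after 15.9% in members under 3000 bp. These are shares of peaks, and wider peaks cover more bases, so they do not show more starts per base. The median number of other peaks within 50 kb was 8.0, 10.0 and 13.0 in the 3 classes of members and 5.0 in the narrowest peaks. The peaks all come from 1 list, and a dense stretch in which close regions were joined would give wide peaks too, whose part in this was not tested.

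**Figure D3:**
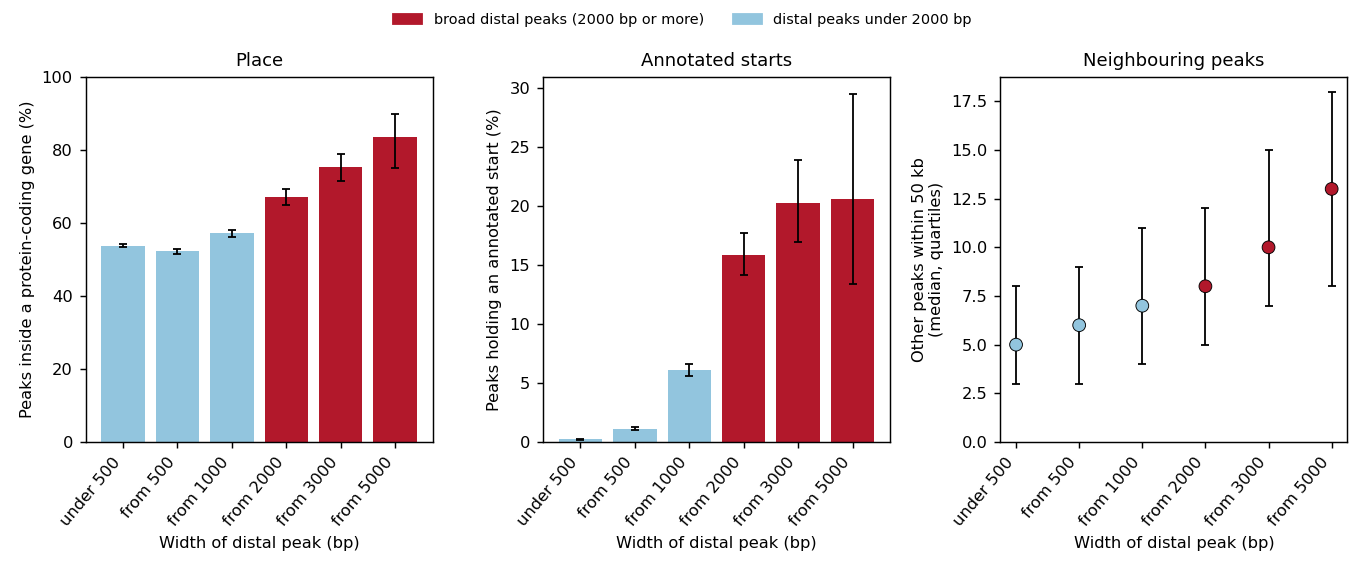
Distal peaks in 6 classes of width (bp), each up to the start of the next: share inside a protein-coding gene (%), share holding an annotated start (%, without chromosome 18), both with exact 95% binomial intervals, and number of other peaks within 50 kb (median and quartiles). Red classes are broad distal peaks and blue classes are narrower distal peaks; all 3 measures were higher in the red classes.

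Within their host genes, broad distal peaks stood somewhat nearer the start. Of 1353 members inside exactly 1 protein-coding gene of known strand, 736 were closer to the start of the gene than to its far end (54.4%, interval 51.7 to 57.1), against 12975 of 26833 narrow distal peaks (48.4%, interval 47.8 to 49.0). As a share of the span, the median position from the start was 45.9% for broad and 51.7% for narrow distal peaks. The start was a median of 43334 bp away from broad and 61989 bp from narrow distal peaks. The far end was also nearer to broad distal peaks, at a median of 50177 bp against 56762 bp. Distances in bp alone thus do not show position within the gene. Within 10 kb of the start lay 21.4% of broad distal peaks (interval 19.3 to 23.7) and 14.2% of narrow ones.

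Broad distal peaks also gathered in runs. Another member lay within 50 kb of 1006 of the 2466 (40.8%, interval 38.8 to 42.8), whereas a member lay that close to 18.6% of narrow distal peaks and 21.0% of broad gene-end peaks. Within 10 kb the shares were 18.7%, 6.00% and 7.70%. The 1006 peaks formed 366 runs with gaps of at most 50 kb, 140 of them of 3 or more members, 31 of 5 or more and 4 of 8 or more. With a limit of 20 kb the share with a neighbour was 26.7%. The remaining 1460 members had no other member within 50 kb.

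The longest run filled Gse1 on chromosome 8, a gene that encodes a coiled-coil protein found with corepressor complexes. Its run of 29 members stretched over 354164 bp (chr8:120264586-120618750) and covered 28.9% of it. The gene itself, of 352883 bp, held 28 members of 2068 to 7920 bp and 48 narrow distal peaks, and peaks of all kinds covered 45.8% of the stretch from its first to its last base. The next gene by number, Bach2, which encodes a transcriptional repressor known best from lymphocytes, held 10 members of 2194 to 4852 bp in 347697 bp. Prdm16, which encodes a chromatin factor of radial glia, held 9 of 2754 to 8179 bp in 321239 bp. Gse1 thus had 79.3 members per Mb of gene, Bach2 28.8 and Prdm16 28.0, against 1.66 over all protein-coding genes.

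Nfix was as dense as Gse1 in a far shorter span. This gene of a nuclear factor I protein of neural progenitors held 8 members of 2261 to 6606 bp in 96527 bp, or 82.9 per Mb, and they added up to 30.3% of the gene. A run of 9 members (chr8:84655370-84790821) contained these 8. Ccdc85c, known from hydrocephalus in the mouse, held 6 in 74254 bp, or 80.8 per Mb, covering 32.3%. Bcl11b, which encodes the zinc finger factor CTIP2 of striatal projection neurons, held 6 of 2243 to 6988 bp in 93743 bp, or 64.0 per Mb, covering 28.2%. Trio held 8, and 7 each were found in Zfp423, the RNA-binding protein genes Msi2 and Celf4, and Ptprn2. Zfp423, known from cerebellar and midline development, and Ptprn2, a gene of secretory vesicles, are long, and Ptprn2 had only 8.83 members per Mb. Ptprn2 had no broad peak at an end of its own, and neither did Dnah8, which held 6 members.

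**Figure D4:**
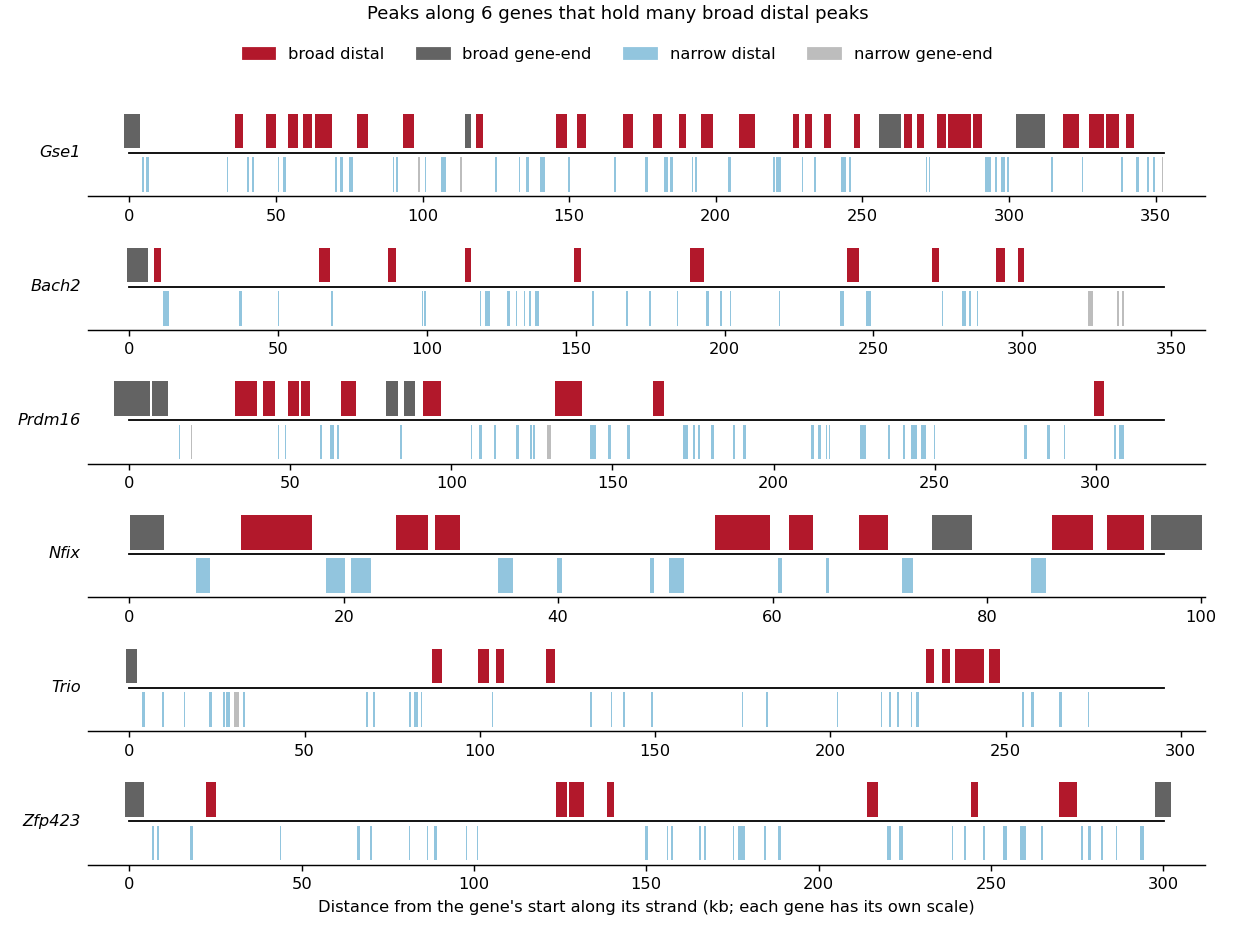
Peaks along 6 of the genes that hold most broad distal peaks and whose strand is known, by distance from the gene's start (kb, own scale per gene). Upper blocks are peaks of 2000 bp or more and lower blocks narrower peaks; gene-end peaks away from the gene's own ends lie at ends of other annotated genes in the span. Gse1 holds 28 broad distal peaks along its length and Nfix 8 in 96527 bp.

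Few protein-coding genes held a broad distal peak, and long genes held one more often than short genes. Of 21770 protein-coding genes, 1173 held at least 1 member inside the span (5.39%), 1659 had the nearest end to at least 1 member (7.62%) and 1741 met either condition (8.0%). The share holding a member was 1.22% among genes under 20 kb, 6.45% at 20 to 100 kb, 18.9% at 100 to 300 kb and 33.5% above 300 kb. By either condition the shares were 3.72%, 8.93%, 23.0% and 35.3% in the same classes. Per Mb of gene, they held 1.66, 1.87, 1.91 and 1.18 members. The median span was 90151 bp in genes with a member, against 17219.5 bp over all. Of the 1173 genes, 298 held at least 2 members (25.4%), 116 at least 3 and 36 at least 5. For 153 members inside a gene (8.90%), the nearest gene end belonged to another gene, as for the 17 members in Gse1 that lay nearest to the replication gene Gins2.

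Genes with broad distal peaks also tended to have a broad peak at an end of their own. This held for 826 of the 1659 genes nearest to a member (49.8%, interval 47.4 to 52.2), against 31.7% of genes nearest to narrow distal peaks only and 26.0% of all protein-coding genes. The share was 46.5% in genes with 1 member inside, 61.5% with 2 and 69.8% (interval 60.6 to 78.0) with 3 or more. Where the midpoint alone decided which peaks are at a gene end, it was 26.0% for genes nearest to a member. That rule moves wide peaks that only reach an end with one side into the distal class. The share over all protein-coding genes was not computed under it, so this value cannot be set beside the 26.0% above.

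Of the genes in the title of the study, Meis2 had broad distal peaks and the Dlx genes had none. Meis2, which encodes a homeodomain factor of striatal neurons, held 3 members of 2551, 2736 and 2035 bp that lay 66032, 47298 and 24686 bp from an end (chr2:116000230-116002781, chr2:116018871-116021607 and chr2:116041834-116043869). Another, of 3561 bp, lay 255582 bp beyond the gene, which was the nearest to it (chr2:116321339-116324900). Meis2 also held 27 narrow distal peaks and had a broad peak of 21116 bp at an end. Dlx1 and Dlx2, homeodomain genes of ganglionic eminence progenitors, neither held nor were nearest to a member, but 1 broad peak of 25417 bp met an end of both genes. The closest member, of 3531 bp, lay inside the neighbouring gene Metap1d, 8843 bp from Dlx1 and 24138 bp from Dlx2 (chr2:71515739-71519270). Six3, a homeobox gene of the striatal lineage, had a broad peak of 12055 bp at an end and no member, and the closest lay 53193 bp away inside Six2.

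The 20 transcription factor genes of striatal projection neurons stood high among 36 gene lists. Of these, 16 held a member or were the nearest gene to one (80.0%, interval 56.3 to 94.3), against 8.0% of all protein-coding genes. They are long, with a median span of 118109.5 bp, but the background for genes of 100 to 300 kb was 23.0%. Their spans held 8.64 members per Mb, against 1.66 over all genes, and 11.1% of the distal peaks inside them were broad, against 4.71%. Bcl11b had the widest member (6988 bp), followed by the forkhead genes Foxp4 (5070 bp) and Foxp2 (5033 bp) and by Ebf1 (3861 bp), which acts in direct pathway neurons. Ikzf1, Ikzf2, Six3 and Rxrg had none. Of 18 markers of mature striatal neurons, 2 had a member (11.1%, interval 1.38 to 34.7), near the 8.0% of all protein-coding genes. The background was 8.93% for genes of 20 to 100 kb, the class of their median span of 21788.5 bp. The 2 were the phosphodiesterase genes Pde10a (4593 bp) and Pde1b (2261 bp). The receptor genes Drd1, Drd2 and Adora2a and the peptide genes Penk, Pdyn and Tac1 were among the 16 without.

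Regulators of ganglionic eminence progenitors, the dividing cells that give rise to striatal neurons, differed in where their broad distal peaks lay. Of 15 genes, 8 had a member (53.3%, interval 26.6 to 78.7), but only Gli3, a Hedgehog pathway factor, held one inside the span (5836 bp). These genes are short, with a median span of 3422 bp, and the background for genes under 20 kb was 3.72%. Near Dlx6 lay a member of 7424 bp inside the non-coding gene Dlx6os1, 9890 bp from Dlx6 (chr6:6849732-6857156). Near Olig1, a bHLH gene of glial progenitors, lay one of 5726 bp, and near the homeobox gene Gsx2, which patterns the lateral eminence, 2 members, the wider of 4697 bp. All 15 genes had a broad peak at an end, against 26.0% of all protein-coding genes. That background was not computed for short genes apart. The 15 include the 7 with no member, which were Dlx1, Dlx2, Dlx5, Gsx1, Sp9, Nkx2-1 and Nkx6-2.

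Genes of radial glia, the stem cells of the embryonic brain, had members in 11 of 18 cases (61.1%, interval 35.7 to 82.7). The share was 8.0% over all protein-coding genes. The median span of the list, 19437 bp, lay just under a class border. The background was 3.72% under 20 kb and 8.93% at 20 to 100 kb. The 7 genes with a member inside spanned 29515 bp (Pax6) to 540811 bp (Nfia). For longer genes the background was 23.0% at 100 to 300 kb and 35.3% above 300 kb. The spans of all 18 genes held 13.8 members per Mb, against 1.66 over all genes. The widest were those of 10102 bp in Notch1 and 6606 bp in Nfix. Pax6, a homeodomain gene of dorsal progenitors, held one of 5184 bp, and near Sox9 the wider of 2 measured 4012 bp. Nes, Vim, Fabp7 and Slc1a3, common markers of radial glia, had none. All 4 nuclear factor I genes had members, with 8 for Nfix, 6 for Nfia (up to 3782 bp), 4 for Nfib (up to 2813 bp) and 1 for Nfic (3047 bp). Among 24 Notch pathway genes, 6 had a member (25.0%), against the same 8.0% over all protein-coding genes. Their median span of 19822.5 bp was also just under the border between 3.72% and 8.93%, and they held 5.95 members per Mb. The 4 with a member inside spanned 45921 bp (Notch1) to 418000 bp (Maml3). There were 5 inside the coactivator gene Maml3 (up to 3512 bp), 1 of 3753 bp in the DNA-binding effector gene Rbpj and 1 of 3368 bp in Notch2, and none at the ligand genes Dll1, Dll3, Dll4, Jag1 and Jag2.

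In most lists of long neuronal genes, shares above the 8.0% of all protein-coding genes went with an ordinary or low density. Of 26 cell adhesion genes, 12 held a member (46.2%), but their median span was 906823 bp, for which the background above 300 kb was 35.3%. They held 0.838 members per Mb, and 2.33% of the distal peaks in them were broad, both below the values over all genes. Their widest members were in Nrxn2 (4964 bp) and Tenm4 (4756 bp), and Ctnna2 held one of 3637 bp. These are genes of synaptic and cell contacts. For 30 ion channel and transmitter receptor genes the values were 9 with a member (30.0%) and 0.944 per Mb. Their median span was 310147.5 bp, so the share was below the same background of 35.3%. The widest lay in the calcium channel gene Cacna1c (4282 bp). For 30 axon guidance genes, with a median span of 366209.5 bp and also beside 35.3%, the values were 14 (46.7%) and 1.56 per Mb. The widest measured 4114 bp in Sema6d and 4070 bp in Slit2. The 16 pan-neuronal genes had 9 (56.2%) and 2.01 per Mb, with 3632 bp in Elavl4. Their median span was 227979 bp, and the background for genes of 100 to 300 kb was 23.0%. RNA-binding protein genes, also long at a median of 152125 bp and beside the same 23.0%, had 14 of 24 (58.3%). Their density of 5.31 per Mb was above that of the other lists here. Msi2 (4552 bp), Rbfox2 (4389 bp) and Celf4 (4127 bp) held the widest.

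**Figure D5:**
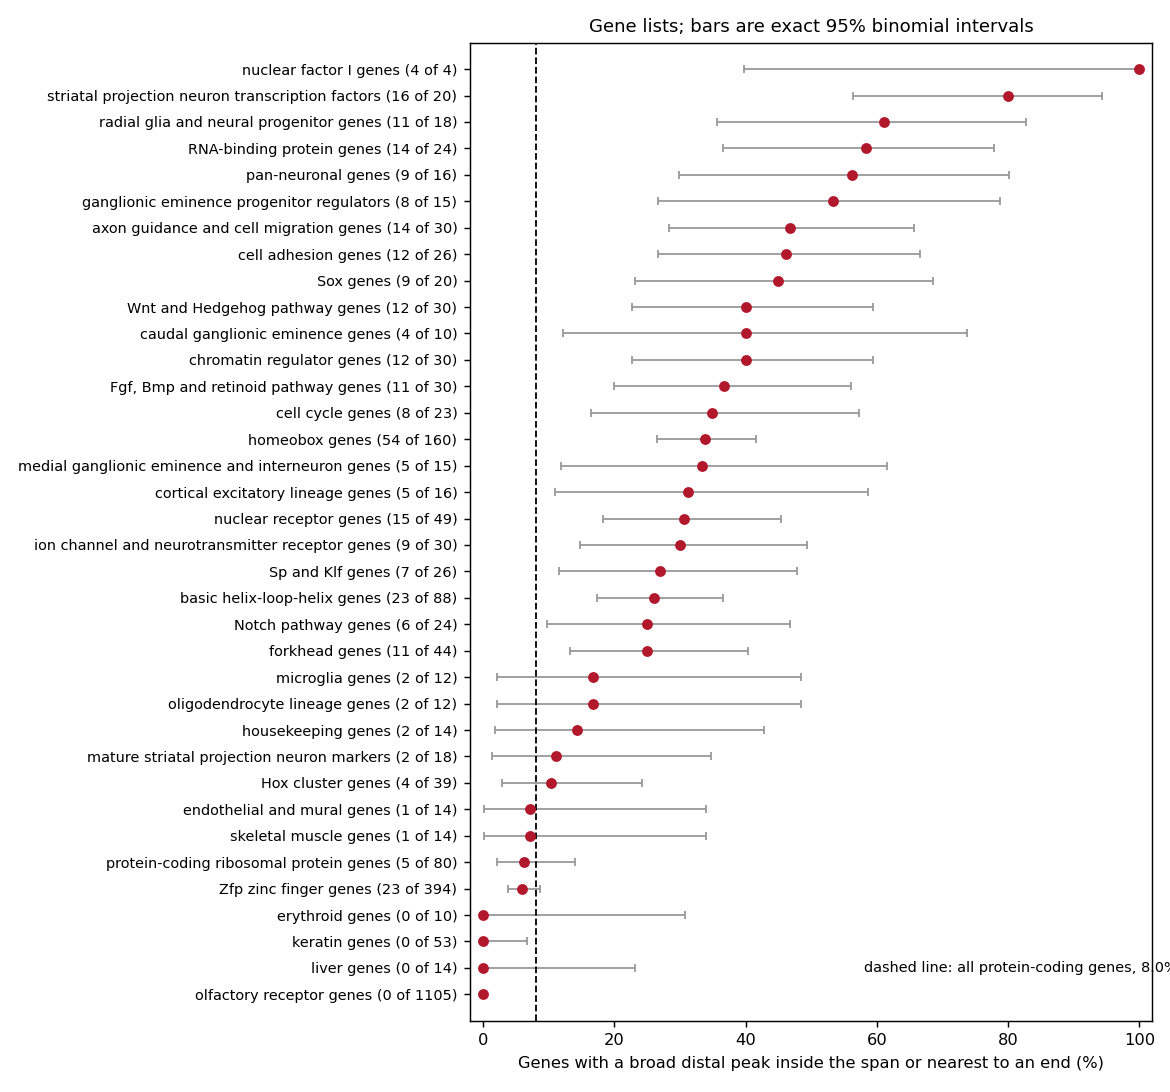
Share of genes (%) in each of 36 lists that held a broad distal peak or were the nearest protein-coding gene to one, with exact 95% binomial intervals; the counts stand beside each list's name and the dashed line marks all protein-coding genes, 8.0%. Striatal transcription factor genes and radial glia genes lie high, at 80.0% and 61.1%, and lists of liver, keratin, erythroid and olfactory receptor genes at 0%.

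Genes of neighbouring lineages also had members. The shares here stand beside 8.0% of all protein-coding genes, 3.72% of those under 20 kb and 8.93% of those of 20 to 100 kb. By median span, the medial eminence and endothelial lists fall in the class of 20 to 100 kb (24043 and 44569 bp). All other lists of this paragraph fall under 20 kb. Of 15 genes of the medial ganglionic eminence and interneurons, 5 did (33.3%), with 3509 bp at Lmo3. Of 10 genes of the caudal eminence, 4 did (40.0%), led by the orphan receptor genes Nr2f2 (5629 bp) and Nr2f1 (3243 bp). Of 16 genes of cortical excitatory neurons, 5 did (31.2%), with at most 2999 bp, in Cux2, and none at Eomes or Tbr1. Oligodendrocyte genes had 2 of 12 (16.7%, interval 2.09 to 48.4), at the growth factor receptor gene Pdgfra (4710 bp) and at Nkx2-2 (2556 bp). Microglia genes also had 2 of 12 (16.7%), near C1qa and Ptprc and not inside them. Endothelial and mural genes had 1 of 14, near Pecam1 (3138 bp), and skeletal muscle genes 1 of 14, in Pax7 (3375 bp), which also marks neural progenitors. No erythroid gene of 10, no liver gene of 14, no keratin gene of 53 and no olfactory receptor gene of 1105 had a member. With lists this short, 0 of 10 allows a share of up to 30.8% by the exact interval and 0 of 14 one of up to 23.2%. Both intervals include the 3.72% of genes under 20 kb.

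Broad distal peaks far from any protein-coding gene were rare. The nearest protein-coding end lay within 100 kb of 82.7% of members and within 500 kb of 99.1%, against 75.0% and 97.1% of narrow distal peaks. The farthest member, of 2112 bp, lay 1302274 bp from the nearest, the pigment gene Tyrp1, with no other peak within 50 kb (chr4:79530793-79532905). The next, of 2609 bp, lay 1114899 bp from Hace1. One of 2130 bp lay 1031439 bp from Lrrc4c and 582 bp from the next peak (chr2:98662046-98664176). As background, this stretch of chromosome 2 is known for artefactual signal in mouse sequencing data. The other 2 of the 5 farthest, of 2788 and 3064 bp, lay inside the non-coding gene Gm29260, 884503 and 804473 bp from Pou3f3, a neural POU factor gene (chr1:41809871-41812659 and chr1:41889763-41892827). Mn1, a transcriptional coregulator gene, had 9 members between 141747 and 386779 bp away, of 2049 to 3043 bp, and it was named after its values were seen.

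By chromosome, broad distal peaks made up 4.96% of distal peaks on chromosome 4 and 4.80% on chromosome 8, against 2.63% on chromosomes 16 and X. Chromosome X held 28 members, or 0.167 per Mb, while autosomes held 0.642 to 1.51 per Mb and chromosome Y none of 8 distal peaks. Of the distal peaks on the autosomes as a set, 3.71% were broad. Beyond the peaks already named, the widest of their chromosomes lay in the Bmp receptor gene Bmpr1b (6065 bp, chromosome 3), in Smarcd3, a gene of the BAF remodelling complex (6623 bp, chromosome 5), and in the Groucho corepressor gene Tle3 (5973 bp, chromosome 9). They further included peaks in Ccdc85c (7231 bp, chromosome 12), in Macrod1 (7690 bp, chromosome 19), in Dpysl3, a gene of growth cones (5238 bp, chromosome 18), and in the Polycomb gene Bcor (5246 bp, chromosome X). Between genes lay those near Ptma (5268 bp, chromosome 1), near the sensory neuron gene Pou4f1 (5160 bp, chromosome 14) and near Olig1 (chromosome 16).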

How the data were processed

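Single-nucleus ATAC-seq was made from 2 libraries of E14.5 wild-type striatum, which form 1 group. The authors' deposited file holds positions of peaks only, with no count, score or library, as chromosome, start and end in mm10, per the file itself. Cell Ranger ATAC 1.2.0 and Signac are named per the submitters' processing notes. The peak caller, any joining of close regions, the pooling of libraries and whether starts count from 0 or 1 are not given in the sources used here, so a position can be off by 1. Depth is unknown.

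Peaks were compared with 49591 RefSeq gene spans (406 entries off the main chromosomes or without a position were left out), 21770 of them protein-coding, and with 32849 annotated starts of 27024 genes (GRCm38.p6). Places and distances go by the midpoint. Shares have exact 95% Clopper-Pearson intervals, which cover counting error only, since peaks and genes are not replicates, and no test was made. Python 3.11.15, pandas 2.3.3, numpy 2.4.6, scipy 1.17.1 and matplotlib 3.10.9 were used, and the computation was tested on simulated data. The members and the 36 gene lists were chosen with earlier results of these data known. Named were the 15 widest members, the 10 genes with most members, up to 4 genes with the widest member per list, the peaks next to the width limit, the 5 farthest members, the 3 longest runs, Meis2, Dlx1, Dlx2 and Six3, and the widest member per chromosome. Some of the genes this rule takes are not reported here. Other genes named, and genes without a member, were chosen after their values were seen. Alternatives changed the width limit, the window, the gene ends, the distances and the peaks that hold a start.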

Additional observations from a re-analysis of the deposited data

How the results depend on the processing

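Of 53 alternative values of shares and medians, 21 stayed within the interval of the reported value and 32 did not. Of 8 alternative numbers of peaks, 6 were within 1.5 times of 2466, the farthest 3699 with the midpoint deciding, and 2 were not. A limit of 3000 bp gave 689 broad distal peaks, 76.6% of them inside a protein-coding gene, a median of 23297 bp to the nearest end, 29.6% with another member within 50 kb, 11.0 other peaks within 50 kb, 1.86% of genes holding a member and 35.5% of nearest genes with a broad peak at an end. At 1500 bp there were 5115 peaks, 65.4% inside a gene, 50.8% with a neighbour, 9.37% of genes and 60.7% with a broad end peak. At both limits the end peak had to meet the changed limit as well. Thus 35.5% and 60.7% are not the same measure as the reported 49.8%. The share over all protein-coding genes was not computed under these limits. A window of 2500 bp gave 31033 bp, 4.59% of genes and 53.8% with a broad end peak. One of 500 bp gave 24002 bp, 5.82% and 46.7%. The changed window applied to the end peaks as well. With ends of protein-coding genes only, 63.6% lay inside a gene, 45.1% had a neighbour and 6.21% of genes held a member. With the midpoint deciding, the values were 73.6% inside a gene, 11516 bp, 46.4% with a neighbour, 9.04% of genes and 26.0% with a broad end peak. Neighbouring members within 20 kb and 100 kb instead of 50 kb gave 26.7% and 52.9%, and 20 kb gave 4.0 other peaks. Counting nearest genes gave 7.62%. Without members that hold a start, a choice made after seeing the data, 64.1% lay inside a gene, the median distance was 29505.5 bp, 4.01% of genes held a member and 54.8% had a broad end peak.

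Other limits and windows change which peaks count as members and as gene-end peaks, and other distances change what counts as near. How far each of these moved the values was not tested. The share inside a protein-coding gene was lowest at 63.6% among the alternatives run. No paired analysis was possible because the peak list is shared by both libraries and carries no replicate. Leaving out a library could not be run for the same reason, and without counts per library neither height nor openness per nucleus of a peak is known.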

Other observations

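Families of transcription factors and signalling genes not described above had members as follows. The shares of the transcription factor families stand beside 8.0% of all protein-coding genes. By median span, the nuclear receptor list (47143 bp) falls in the class of 20 to 100 kb, with a background of 8.93%. All other lists of this paragraph fall under 20 kb, with a background of 3.72%. Homeobox genes had a member in 54 of 160 cases (33.8%, interval 26.5 to 41.6), and Sox genes, which act in progenitors, in 9 of 20 (45.0%), the widest near Sox1 (7050 bp). Of 44 forkhead genes 11 had a member (25.0%), of 49 nuclear receptor genes 15 (30.6%) and of 26 Sp and Klf genes 7 (26.9%). Of 88 basic helix-loop-helix genes 23 had a member (26.1%), but the 5 members nearest to Lyl1, a gene of blood cells, all lay inside Nfix. Zfp zinc finger genes, many of them in clusters, had 23 of 394 (5.84%, interval 3.74 to 8.63). That lay between the 8.0% of all protein-coding genes and the 3.72% of genes under 20 kb, the class of their median span of 18104 bp. Hox genes, which are silent in forebrain, had 4 of 39 (10.3%), against 3.72% of genes under 20 kb, the class of their median span of 3737 bp. Hoxd3 and Hoxd4 share 1 of these members, of 2180 bp, and 26 of the 39 had a broad peak at an end, against 26.0% of all protein-coding genes.

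Wnt and Hedgehog pathway genes had 12 of 30 (40.0%), the widest in Ptch1 (7068 bp) and near the ligand gene Wnt7a (6222 bp). Fgf, Bmp and retinoid pathway genes had 11 of 30 (36.7%), led by Rara, with further members of 6366 bp near the Fgf receptor gene Fgfr3 and of 6065 bp in Bmpr1b. Chromatin regulator genes had 12 of 30 (40.0%), and 28 of the 47 members inside them lay in Gse1. Cell cycle genes had 8 of 23 (34.8%), with 5803 bp near the stress gene Gadd45g. Housekeeping genes had 2 of 14 (14.3%, interval 1.78 to 42.8). Ribosomal protein genes had 5 of 80 (6.25%, interval 2.06 to 14.0), and none of these 5 held the member inside. Over all protein-coding genes the share was 8.0%. It was 3.72% under 20 kb, the class by median span of the cell cycle, housekeeping and ribosomal lists. For genes of 20 to 100 kb, the class of the other lists of this paragraph, it was 8.93%.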
